A study of Homo sapiens with 20 samples.

Results

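The genes followed here are acute-phase genes and their C/EBP transcription factors in TPC-1 cells, namely CEBPA, CEBPB, CEBPD, CEBPG, SERPINA3, SAA1, SAA2, PTX3, HP and FGB, taken by symbol as 10 of the 54261 rows of a gene count table. TPC-1 is an established line from a human papillary thyroid carcinoma. RNA-seq libraries came from TPC-1 cells kept for 48 h together with PMN-MDSCs (polymorphonuclear myeloid-derived suppressor cells, neutrophil-like cells that restrain T cells; 6 libraries) and from untreated TPC-1 cells (4 libraries). The labels used here do not say how the 2 cell types were kept together, where the PMN-MDSCs came from or whether they were taken off before RNA extraction. The question was how the 10 genes differed between coculture and control.

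The acute-phase response is the change in secreted proteins that follows infection or injury. In the liver it is driven by interleukin 6 through STAT3 and by interleukin 1 through NF-kB, and C/EBP proteins, which are leucine zipper factors that pair with one another on DNA, act on many of the same promoters. Outside the liver, epithelial and stromal cells can make some of these proteins themselves, among them the long pentraxin PTX3 and serum amyloid A.

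PTX3, a soluble pattern recognition protein of innate immunity, was 3.35-fold higher in coculture and was the 1 gene of the 10 that passed the test. SAA1, an apolipoprotein of inflammation, was 6.85-fold higher at a low level and with a wide spread, and it did not pass. CEBPB and CEBPD, the C/EBP factors most tied to inflammation, were 1.34-fold and 1.84-fold higher without passing, and CEBPG and CEBPA were at 1.15 and 1.05 times the control level, also without passing. HP, SERPINA3 and FGB, products of the liver's response, were at or near 0 counts in every library, and SAA2 was close to it. The test was edgeR's quasi-likelihood test across all 15629 genes that passed a count filter, with Benjamini-Hochberg adjusted p under 0.05 as the threshold. Of the 10 genes, 6 passed the filter, and 1 was higher, 0 were lower and 5 were not called. At an unadjusted p under 0.05, 4 were higher and 0 lower, and DESeq2 called the same numbers at its adjusted p. Of all genes tested, 1.14% were called higher by edgeR's adjusted p, 0.186% lower and 1.32% in either direction. An unadjusted p under 0.05 was reached by far more, 1509 of the 15629 genes, and DESeq2 called 333 higher and 106 lower.

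To show which letters lie before the gene that rose (PTX3), before genes near 0 counts (FGB and SERPINA3) and before the most abundant of the 10 (CEBPB), the 250 bases upstream of the transcription start are printed for PTX3, FGB, SERPINA3 and CEBPB, 5′ to 3′ on the gene's strand, from RefSeq on build GRCh38.p14. Capitals mark matches, on either strand, to TTGCNNAA (C/EBP) or to the NF-kB pattern of GGG and CC with 5 free bases between them. The STAT3 motif TTCNNNGAA, the AP-1 motif TGANTCA and the TATA box were searched in the same way and had no match in these 4 windows.
PTX3, chr3:157436600-157436849, plus strand: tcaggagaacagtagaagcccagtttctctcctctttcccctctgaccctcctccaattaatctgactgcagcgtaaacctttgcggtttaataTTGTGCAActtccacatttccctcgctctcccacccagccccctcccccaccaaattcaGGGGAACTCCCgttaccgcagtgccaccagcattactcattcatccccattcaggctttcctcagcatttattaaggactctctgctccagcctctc
FGB, chr4:154562730-154562979, plus strand: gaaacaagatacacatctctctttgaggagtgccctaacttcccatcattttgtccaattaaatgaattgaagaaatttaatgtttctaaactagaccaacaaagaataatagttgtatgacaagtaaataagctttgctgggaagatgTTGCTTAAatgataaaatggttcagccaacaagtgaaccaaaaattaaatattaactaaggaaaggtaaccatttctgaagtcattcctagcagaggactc
SERPINA3, chr14:94612141-94612390, plus strand: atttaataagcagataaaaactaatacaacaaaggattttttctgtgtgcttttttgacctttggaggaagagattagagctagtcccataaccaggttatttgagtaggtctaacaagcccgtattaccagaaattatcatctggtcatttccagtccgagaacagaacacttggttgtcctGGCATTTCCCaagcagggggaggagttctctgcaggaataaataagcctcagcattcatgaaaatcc
CEBPB, chr20:50190333-50190582, plus strand: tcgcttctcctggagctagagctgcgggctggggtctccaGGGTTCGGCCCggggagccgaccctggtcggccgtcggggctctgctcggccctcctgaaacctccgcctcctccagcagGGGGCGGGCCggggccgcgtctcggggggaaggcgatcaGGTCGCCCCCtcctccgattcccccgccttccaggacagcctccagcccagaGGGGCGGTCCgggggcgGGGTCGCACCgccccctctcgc

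In the PTX3 window, the C/EBP match TTGTGCAA began 156 bases before the start. Overlapping NF-kB matches, GGGGAACTCC and GGGAACTCCC, began 97 and 96 bases before it. The FGB window held 1 C/EBP match, TTGCTTAA, 101 bases before the start and no NF-kB match, and the SERPINA3 window held 1 NF-kB match, GGCATTTCCC, 67 bases before the start. The CEBPB window, before the first of 2 RefSeq starts, held 6 NF-kB matches and no C/EBP match. Among these matches, GGGTTCGGCC and GGTTCGGCCC, 210 and 209 bases before the start, overlap. The window before the second CEBPB start, not printed, held 3 NF-kB matches and a TATA box 29 bases before that start. The matches 186 and 185 bases before the second start overlap too. For FGB the first of 2 starts is shown too. Over all 35116 promoter windows of the same length, 9.05% held a C/EBP match, 54.4% an NF-kB match, 6.57% a STAT3 match, 6.57% an AP-1 match and 10.7% a TATA box. For PTX3 and SERPINA3 the RefSeq start lies inside the span given in the deposited table, so the last bases of the window fall within that span. A match describes letters alone. Of the 10 genes, 6 had a promoter window, CEBPA and CEBPG with the others above, and SAA1, SAA2 and HP had none listed. Windows on chromosome 8, where CEBPD lies, were left out of the search for the 10 genes, so no CEBPD window was examined.

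Library totals ran from 40237801 to 48197608 counts. Coculture libraries 1 and 2 stood apart on the first principal component of all tested genes (39.3% of the variance), at 66 and 60.9, with the other 8 libraries between -31.5 and -1.01, so the fits were repeated without them. Of the thyroid and epithelial markers, the keratins KRT8 and KRT18 and the thyroid factor PAX8 were abundant (PAX8 at 625 ± 107 CPM, read counts scaled to a common library size, in coculture and 508 ± 11.2 in controls), while the epithelial adhesion gene EPCAM was at 0.0482 ± 0.0538 and 0.114 ± 0.0684 CPM. CDH1 (E-cadherin) had 5 counts in coculture and 0 in controls, and the thyroid gene TSHR had 1 count over all 10 libraries. Hepatocyte markers, 12 genes, summed to 0.309 to 0.834 CPM in coculture and 0.299 to 1.48 CPM in controls, and 0 of them had enough counts to test. The libraries of a group are not stated to be separate cultures, so the p-values describe the spread between these libraries, which may be technical.

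PTX3 was at 36, 26, 17.4, 31.2, 19.2 and 22.8 CPM in coculture libraries 1 to 6 and at 7.84, 9.22, 7.28 and 6.05 CPM in control libraries 1 to 4. Every coculture library lay above every control, and the lowest coculture library was 2.29 times the control mean and the highest 4.74 times. The means were 25.4 ± 7.14 CPM (SD, n = 6) and 7.6 ± 1.31 CPM (n = 4), and the log2 fold change was 1.74 ± 0.21 (SE; edgeR adjusted p = 0.00104). PTX3 ranked 41 by p among the genes tested. Without coculture 1 and 2 the log2 fold change was 1.56 ± 0.18 (edgeR adjusted p = 0.000485), and with each library left out in turn it ran from 1.62 to 1.85, with adjusted p up to 0.00854. The deposited table puts PTX3 at chr3:157436791-157443628, plus strand (build GRCh38.p10), inside the span of VEPH1 on the minus strand. Counting by strand is not stated, so reads of the overlap cannot be parted. VEPH1, a pleckstrin homology domain gene, was at 72.4 ± 6.63 CPM in coculture and 63.1 ± 4.32 CPM in controls, a log2 fold change of 0.20 ± 0.09 (edgeR adjusted p = 0.495).

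**Figure D1:**
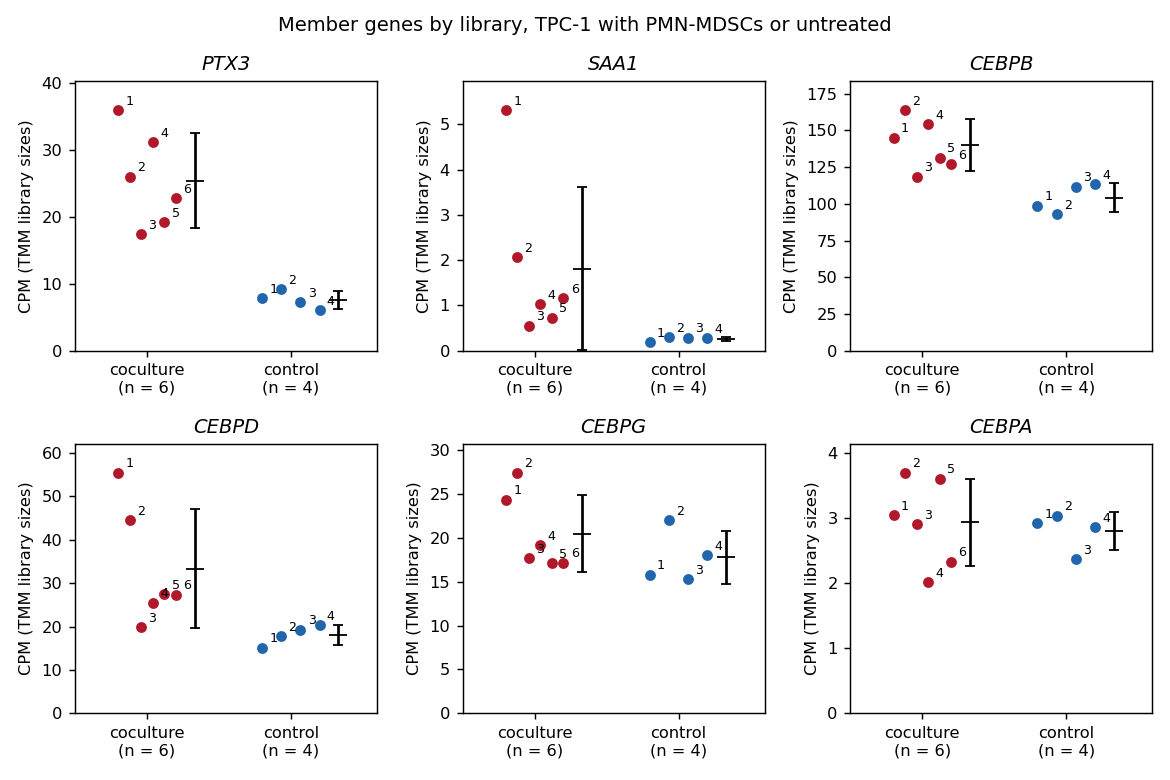
Expression of the 6 tested genes in CPM on TMM library sizes, 1 point per library with its number, for coculture (red) and control (blue), with the mean ± SD as a black bar. PTX3 at 17.4 to 36 CPM in coculture lies clear of the controls at 6.05 to 9.22 CPM, while CEBPA and CEBPG overlap.

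SAA1 was at 5.32, 2.06, 0.548, 1.02, 0.733 and 1.16 CPM in coculture libraries 1 to 6 and at 0.192, 0.297, 0.291 and 0.271 CPM in control libraries 1 to 4. Counts were 23 to 232 per coculture library and 9 to 12 per control library. No coculture library fell within the control range, yet the coculture libraries differed widely among themselves, with libraries 1 and 2 highest and library 3 lowest. Coculture averaged 1.81 ± 1.8 CPM, against 0.263 ± 0.0483 CPM in the 4 controls, with a log2 fold change of 2.78 ± 0.65 and an edgeR adjusted p of 0.0708. The log2 fold change was smaller without coculture 1 and 2, 1.70 ± 0.34, and it passed (edgeR adjusted p = 0.0194), with coculture 3 to 6 at 0.865 ± 0.275 CPM. Leaving out coculture 1 alone gave 2.07 with an adjusted p of 0.03, leaving out coculture 3 gave 2.96 with 0.0327, and leaving out any control gave adjusted p-values of 0.17 to 0.225. SAA1 was the tested gene of the 6 with a control mean under 1 CPM.

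SAA2 codes for a serum amyloid A nearly identical to SAA1, so reads could be split between them in a way the sources do not describe. It had 14, 10, 0, 1, 0 and 2 counts in coculture libraries 1 to 6 and 0, 1, 0 and 0 in the controls. The ratio of the groups was 18.2 with a 95% counting interval of 3 to 745, which covers counting error alone. Of its 27 coculture counts, libraries 1 and 2 held all but 3. SAA4, the constitutive serum amyloid A beside it, and the readthrough SAA2-SAA4 had 0 counts in all 10 libraries. In the deposited table SAA1 is at chr11:18266225-18269977, plus strand, and SAA2 at chr11:18238233-18248674, minus strand (GRCh38.p10).

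SERPINA3 (alpha-1-antichymotrypsin, an inhibitor of neutrophil cathepsin G) had 4 counts in coculture 2 and 0 in the other 9 libraries. A library's floor of 3 counts was 0.0632 to 0.0758 CPM in coculture and 0.0641 to 0.0741 CPM in controls, and no fold is given where both groups lie at or under it. SERPINA1 (alpha-1-antitrypsin), a related acute-phase inhibitor, was expressed at 10.8 ± 4.01 CPM in coculture and 5.24 ± 1.57 CPM in controls. Its log2 fold change of 1.04 ± 0.30 was not called (edgeR adjusted p = 0.176). HP codes for haptoglobin, which binds free hemoglobin, and had 0 counts in all 10 libraries, as had its close copy HPR. The handling of reads that match both copies is not stated. FGB, the beta chain of fibrinogen, had 1, 3, 0, 0, 2 and 2 counts in coculture and 4, 2, 7 and 0 in controls, a ratio of 0.415 with a 95% counting interval of 0.149 to 1.08. The other fibrinogen chains were as low, FGA with 0 counts in all and FGG with 8 in coculture and 1 in controls.

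CEBPB was the most abundant of the 4 C/EBP mRNAs and the most even. It was at 145, 164, 118, 154, 132 and 127 CPM in coculture libraries 1 to 6 and at 98.7, 93, 112 and 114 CPM in control libraries 1 to 4. Every coculture library was above every control, by a narrow margin for coculture 3. The means were 140 ± 17.4 and 104 ± 9.97 CPM, with a log2 fold change of 0.43 ± 0.11 (edgeR adjusted p = 0.0925). Leaving out coculture 3 gave 0.47 and an adjusted p of 0.0487, and without coculture 1 and 2 it was 0.34 ± 0.09 (edgeR adjusted p = 0.0905). The antisense gene CEBPB-AS1 was at 12.6 ± 1.58 CPM in coculture and 8.96 ± 0.809 CPM in controls, a log2 fold change of 0.49 ± 0.12 (edgeR adjusted p = 0.101). Without a stated strand setting the reads of the antisense gene and of CEBPB may be mixed.

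CEBPD was at 55.4, 44.5, 19.8, 25.5, 27.4 and 27.3 CPM in coculture libraries 1 to 6 and at 15.1, 17.8, 19.3 and 20.4 CPM in control libraries 1 to 4. Coculture 1 and 2 were 3.06 and 2.45 times the control mean, coculture 4 to 6 were 1.41 to 1.51 times, and coculture 3 fell within the control range. The means were 33.3 ± 13.6 and 18.1 ± 2.28 CPM, with a log2 fold change of 0.88 ± 0.26 (edgeR adjusted p = 0.187). With coculture 1 and 2 left out this was 0.45 ± 0.12 (edgeR adjusted p = 0.0904).

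CEBPG, which binds DNA as a partner of other C/EBP and ATF4 proteins, was at 24.3, 27.4, 17.7, 19.2, 17.1 and 17.1 CPM in coculture libraries 1 to 6 and at 15.8, 21.9, 15.3 and 18 CPM in control libraries 1 to 4. The groups overlapped, with coculture 1 and 2 above all controls and the other 4 coculture libraries among them. The log2 fold change was 0.21 ± 0.16 (edgeR adjusted p = 0.73) and -0.011 ± 0.12 without coculture 1 and 2 (edgeR adjusted p = 0.978). CEBPA, the factor of granulocyte, fat and liver cell differentiation, was at 3.05, 3.71, 2.91, 2.02, 3.61 and 2.34 CPM in coculture and 2.93, 3.04, 2.38 and 2.87 CPM in controls. The highest and the lowest library were both coculture libraries, and the log2 fold change was 0.07 ± 0.20 (edgeR adjusted p = 0.939), with -0.06 ± 0.20 without coculture 1 and 2.

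Of the 6 tested genes, PTX3, SAA1 and CEBPB had every coculture library above every control, which held for 2.45% of all genes tested. All 6 had a positive log2 fold change, with a median of 0.65, against 8081 of 15629 genes and a median of 0.0082 over all genes tested. The median of the 6 was 0.39 without coculture 1 and 2, and 2 of them, PTX3 and SAA1, were called higher. Over all 15309 genes tested in that fit, 210 were called higher and 112 lower.

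**Figure D2:**
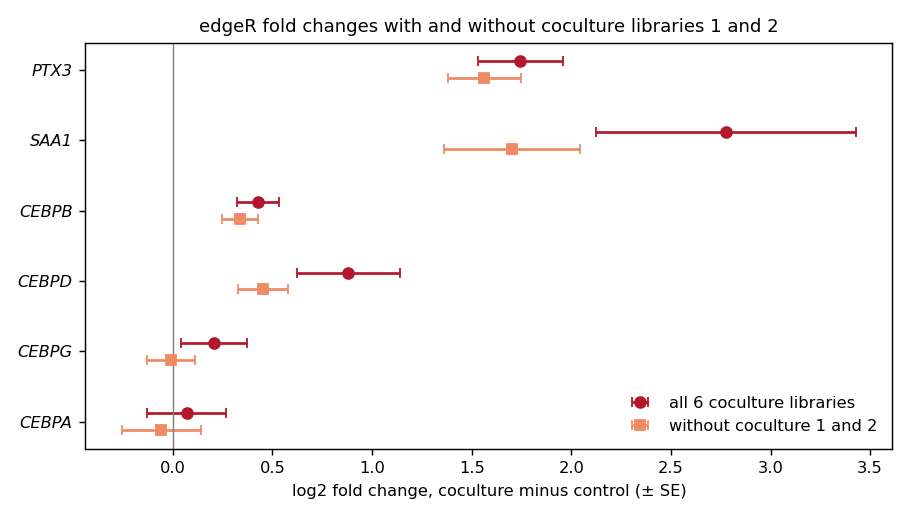
Log2 fold change, coculture minus control, from edgeR with its SE for the 6 tested genes, over all 6 coculture libraries (circles) and without coculture 1 and 2 (squares). PTX3 moves little, at 1.74 and 1.56, while SAA1 goes to 1.70 without the 2 libraries, against 2.78 with all of them, and CEBPD to 0.45, against 0.88.

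Levels of different genes were compared per transcript length, as FPKM (CPM divided by the deposited transcript length in kilobases). CEBPB was at 94.1 ± 11.7 FPKM in coculture and 70 ± 6.7 in controls, CEBPD at 39 ± 16 and 21.2 ± 2.67, CEBPG at 26.4 ± 5.62 and 22.9 ± 3.93, and CEBPA at 2.4 ± 0.548 and 2.28 ± 0.239. PTX3 was at 13.1 ± 3.68 FPKM in coculture and 3.92 ± 0.678 in controls, and SAA1 at 2.53 ± 2.52 and 0.368 ± 0.0676. The order in coculture was CEBPB, CEBPD, CEBPG, PTX3, SAA1 and CEBPA, where CEBPD and CEBPG overlapped within their SD, as did SAA1 and CEBPA. Within each coculture library CEBPD was above CEBPG, by little in coculture 3 (23.2 and 22.8 FPKM). The place of SAA1 above CEBPA came from coculture 1 alone (7.45 FPKM for SAA1 and 2.49 for CEBPA), and in coculture 2 to 6 SAA1 was the lower, at 0.768 to 2.89 FPKM. In controls the order was CEBPB, CEBPG, CEBPD, PTX3, CEBPA and SAA1, with CEBPG and CEBPD again within their SD. CEBPG was above CEBPD in control 1 and 2 and below it in control 3 and 4.

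Of the summed FPKM of the 4 C/EBP mRNAs, CEBPB made up 58.8 ± 5.52% in coculture and 60.1 ± 3.69% in controls. CEBPD made up 33.1, 26, 18.2, 18.7, 22.1 and 22.6% in coculture libraries 1 to 6 and 16.6, 18.3, 18.9 and 19% in control libraries 1 to 4. In 4 coculture libraries the CEBPD share was above every control, and coculture 3 and 4 were within the control range. CEBPG made up 16.3 ± 1.15% and 19.7 ± 3.57%, and CEBPA 1.5 ± 0.374% and 1.97 ± 0.284%. The shares sum to 100% in each library, so they were not tested as independent values.

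**Figure D3:**
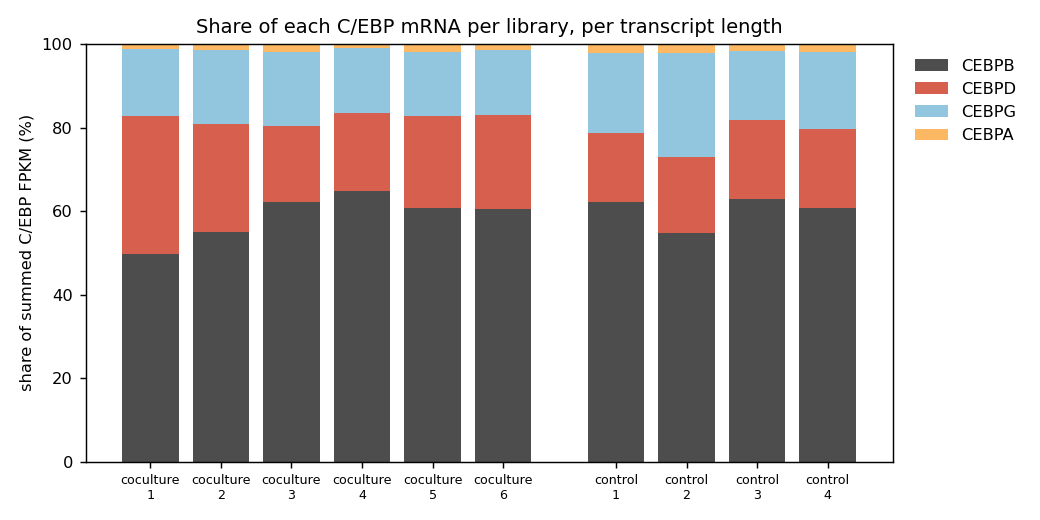
Share of each C/EBP mRNA in the summed FPKM of CEBPA, CEBPB, CEBPD and CEBPG, in percent, 1 bar per library with coculture on the left and control on the right. CEBPB is the largest part of every bar (49.7% or more), and the CEBPD part is widest in coculture 1 at 33.1%.

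Across the 10 libraries SAA1 and CEBPD varied together, with a Pearson r of 0.966 for log2 CPM, 0.957 within the 6 coculture libraries and 0.911 over the 8 libraries without coculture 1 and 2. SAA1 and PTX3 had r values of 0.901, 0.834 and 0.942 in the same order. CEBPG had an r with CEBPD of 0.734 over all libraries and 0.0704 without coculture 1 and 2. CEBPA was the least related to the rest, with r from 0.00839 to 0.449 over all libraries. These values describe 10 libraries that also share the group difference and the distance of coculture 1 and 2.

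By the same measure the genes most like PTX3 among 10356 tested genes with a mean of at least 5 CPM (10357 for SAA1 and CEBPA, which are below that mean) were LOC101927880 (r = 0.986), SOD2, the mitochondrial superoxide dismutase (0.986), and IRAK2, a kinase of interleukin 1 receptor signalling (0.982). Those most like SAA1 were SLC8B1, a mitochondrial cation exchanger (0.987), CD82, a tetraspanin (0.971), and RHBDF2, an inactive rhomboid protein (0.967). CEBPD was followed most closely by RNF220 (0.982), SLC39A4, a zinc importer (0.98), and CYBA, the small subunit of the phagocyte oxidase (0.979). For CEBPB they were MCRIP1 (0.931), INAFM1 (0.929) and PIGP (0.929), for CEBPG IL20RB (0.946), PREP (0.946) and LOC105369370 (0.93), and for CEBPA TRPV1 (0.909), HEATR6 (0.885) and SIAE (0.861).

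Other genes that rise in the acute phase were higher in part. Of 34 listed genes, 15 had enough counts to test, and 5 were higher, 0 lower and 10 not called, with a median log2 fold change of 1.62. The control mean was at least 1 CPM in 8 of the 15, and DESeq2 called 8 higher and 0 lower. C3, the central complement component, rose to 119 ± 59.7 CPM in coculture, against 9.33 ± 4.45 CPM in controls (edgeR adjusted p = 0.00127), and SOD2 to 585 ± 185, against 149 ± 21.2 CPM (edgeR adjusted p = 0.000874). IL1RN, the interleukin 1 receptor antagonist, was at 3.91 ± 2.39 CPM with 0 counts in every control, at least 56.1-fold higher against the mean floor per library. CD14, the lipopolysaccharide receptor of monocytes, rose to 2.9 ± 1.22 CPM, against 0.0863 ± 0.0435 CPM (edgeR adjusted p = 0.000205). TNFAIP6, a hyaluronan-binding protein, was at 2.7 ± 2.08 CPM in coculture and 0.202 ± 0.0672 CPM in controls. Its log2 fold change was 3.72 ± 0.76 (edgeR adjusted p = 0.0305). The lowest coculture library, at 0.262 CPM, lay within the control range of 0.124 to 0.271 CPM. The TNFAIP6 call was lost without coculture 4, without coculture 6 or without any 1 control (adjusted p 0.0529 to 0.124). It was also lost with limma-voom (adjusted p = 0.345) or no filter (adjusted p = 0.144). FN1, fibronectin, was the most abundant at 9194 ± 1361 CPM in coculture and 8932 ± 1700 CPM in controls and was not called (edgeR adjusted p = 0.947). CRP, ORM1, ORM2 and HAMP, further liver products, had 0 counts in all 10 libraries. The handling of reads that match both ORM1 and ORM2 is not stated. Of 12 genes that fall in the acute phase 1 was tested, F12, coagulation factor XII, at 5.98 ± 1.57 and 5.2 ± 0.7 CPM (edgeR adjusted p = 0.778). Less coculture 1 and 2, the list of rising genes had 5 higher and 0 lower of 14 tested, with a smaller median log2 fold change of 0.63.

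Among inducers of the acute phase and their signal path, 5 of the 24 that could be tested were higher, 0 were lower and 19 were not called, and the median log2 fold change was 0.12. IL1B, interleukin 1 beta, rose to 21.9 ± 9.44 CPM in coculture, against 0.352 ± 0.268 CPM in controls (edgeR adjusted p = 0.000103). IL6 rose to 37 ± 13.5, against 7.03 ± 2.46 CPM (edgeR adjusted p = 0.00149). IL1A, interleukin 1 alpha, rose to 2.9 ± 1.29 CPM, against 0.398 ± 0.227 CPM (edgeR adjusted p = 0.00885, and 0.0513 without control 4). NFKBIA, the NF-kB inhibitor, rose by 1.67 ± 0.22 (edgeR adjusted p = 0.00145), and NFKBIZ, a nuclear IkB protein that activates IL6, by 1.83 ± 0.33 (edgeR adjusted p = 0.0152). The NFKBIZ call was lost without any 1 control (adjusted p 0.0511 to 0.0803) and with no filter (adjusted p = 0.125). TNFRSF1A, the main TNF receptor, was the most abundant, at 209 ± 51.8 and 209 ± 13.6 CPM (edgeR adjusted p = 0.99996). In coculture 3 to 6 it was at 176 ± 10.2 CPM, and the fit without coculture 1 and 2 gave a log2 fold change of -0.26 ± 0.07 (edgeR adjusted p = 0.0905). STAT3 was at 125 ± 12.2 CPM in coculture and 124 ± 8.03 CPM in controls (edgeR adjusted p = 0.979). On 4 coculture libraries, without 1 and 2, 6 genes of the list were higher and 0 lower.

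Of 17 tested C/EBP relatives, partners and regulators, 1 was higher, 0 lower and 16 not called, with a median log2 fold change of 0.22. At an unadjusted p under 0.05, 5 were higher and 1 lower, and DESeq2 called 3 higher and 1 lower. The higher gene in edgeR was SPI1, which codes for the myeloid factor PU.1 that works beside C/EBP in blood cells, at 1.96 ± 0.98 CPM in coculture and 0.265 ± 0.148 CPM in controls (edgeR adjusted p = 0.00982). ATF4, a stress factor that pairs with CEBPG, was the most abundant at 707 ± 20.1 and 582 ± 70.2 CPM (edgeR adjusted p = 0.186). CEBPE, the C/EBP factor of late granulocytes, had 8 counts over the coculture libraries and 0 in controls. With coculture 1 and 2 left out, 2 genes of this list were higher and 1 lower, and the median was 0.027. Of 9 tested genes listed as near or overlapping the 10, edgeR called 0 higher and 0 lower, with 3 higher at an unadjusted p under 0.05 and 2 higher with DESeq2. The most abundant, PTPN1, a tyrosine phosphatase gene, was at 118 ± 14.5 CPM in coculture and 116 ± 6.56 in controls (edgeR adjusted p = 0.962). It lies on chromosome 20 with CEBPB but at a distance, starting at base 50510321 where CEBPB ends at base 50192071.

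**Figure D4:**
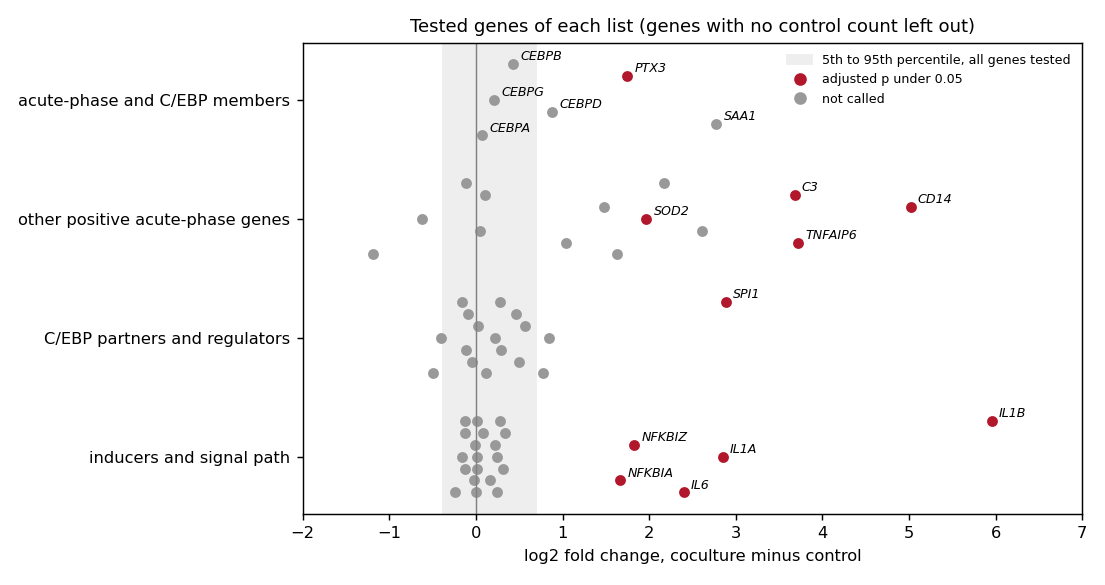
Log2 fold change, coculture minus control, of each tested gene of the 10 and of 3 related lists, in red where the edgeR adjusted p was under 0.05, with the 5th to 95th percentile of all tested genes (-0.38 to 0.70) shaded. IL1B at 5.96 lies farthest right, and STAT3, at 0.01, lies in the shaded band. IL1RN, with no control count, is left out.

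White blood cell genes were higher in the same coculture libraries. Of 9 tested monocyte and macrophage markers, 7 were higher and 0 lower. The listed markers summed to 115 to 190 CPM in coculture and 80.5 to 102 CPM in controls. Of the 18 markers 2, C1QA and AIF1, were at 0 everywhere. Among those not tested, CD163 and FCGR1A each had 2 coculture counts and 1 control count. C1QB and C1QC each had 1 coculture count and 0 in controls, and MS4A7 had 54 and 0. CD14 is one of the 7 higher genes and is also counted among the acute-phase genes above. LYZ, lysozyme, rose by 7.28 ± 0.35 on the log2 scale (8.13 without control 4), CYBB by 6.22 ± 0.50 (6.83 without control 1), CTSS by 4.35 ± 0.42 and CSF1R by 2.43 ± 0.38, and TYROBP was at least 17-fold higher. CD68, the most abundant, was at 120 ± 31 CPM in coculture and 89.1 ± 10.1 CPM in controls and was not called, with 102 ± 13.2 CPM in coculture 3 to 6.

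Pan-leukocyte markers, with 9 of 14 higher and 0 lower, summed to 714 and 677 CPM in coculture 1 and 2, to 475 to 528 CPM in coculture 3 to 6 and to 447 to 503 CPM in controls. Fitted without coculture 1 and 2, 8 of 13 were higher and 0 lower. Of these ITGB2 rose by 2.90 ± 0.21, PTPN6 by 5.39 ± 0.56, LCP1 by 1.34 ± 0.17 and ITGAL by 3.40 ± 0.52, CD53 was at least 24.2-fold and CD52 at least 10.4-fold higher, and RAC2, the most abundant, was at 215 ± 61.2 and 172 ± 15.1 CPM without being called (176 ± 10.8 CPM in coculture 3 to 6). Of the tested genes, 1 of 9 monocyte and 6 of 14 pan-leukocyte markers had a control mean of at least 1 CPM.

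Neutrophil and PMN-MDSC markers summed to 11 to 17.4 CPM in coculture and 9.94 to 13.8 CPM in controls, with 2 of 4 tested genes higher and 0 lower. The higher genes were S100A9 and ITGAM, and the 2 tested genes with a control mean of at least 1 CPM were not called. S100A9 had 235 coculture counts and 1 control count, 158 times the control level per library size with 28.2 to 6285 as its 95% counting interval. ITGAM had 297 coculture counts and 3 control counts, 66.8 times with an interval of 22.6 to 326. FPR1, the most abundant, was at 7.65 ± 2.33 and 7.45 ± 1.41 CPM. Of the 24 markers 7 were at 0 in all libraries, among them FCGR3B, CXCR1, CXCR2, ELANE and MMP8. Other markers had too few counts to test. S100A8 had 53 counts in coculture, CSF3R 11 and MPO 10, each with 0 in controls. LTF had 9 counts in coculture and 23 in controls, and CAMP 7 and 8. Fibroblast markers summed to 154 CPM in coculture 1, to 3.45 to 9.9 CPM in the other coculture libraries and to 3.81 to 7.22 CPM in controls, with 0 of 4 tested genes called by edgeR and 1 higher at an unadjusted p under 0.05. DESeq2 called 0 and gave 1 of the 4, COL1A1, no adjusted p. COL1A1 was at 67 CPM in coculture 1. Less coculture 1, the log2 fold change of PTX3 was 1.62 (edgeR adjusted p = 0.000828). That of SAA1 was 2.07, against 2.78 with all libraries (edgeR adjusted p = 0.03 without coculture 1). CEBPD was at 0.67, against 0.88 (edgeR adjusted p = 0.21 without coculture 1). CEBPB was at 0.42, against 0.43 (edgeR adjusted p = 0.139 without coculture 1). The part of white blood cell RNA in the PTX3, SAA1, CEBPB and CEBPD differences was not tested. Nor was it tested for the called genes of the other lists, such as IL1B, IL1RN and SPI1, with control means under 1 CPM. In such bulk RNA more cells of a type and more RNA per cell cannot be told apart.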

How the data were processed

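RNA-seq gene counts of TPC-1 cells, 6 coculture and 4 control libraries grouped by title labels, were analysed. The authors deposited raw counts per gene symbol. HISAT2 2.0.4, BWA and GRCh38.p10 are named, with no role, in the submitters' processing notes. The sources used here name no counting tool, annotation or strand setting. Transcript lengths and coordinates come from the deposited table. The miRNA table was not used here, and 0 value columns of the gene table were left out. Of 54261 rows, 24191 had no count.

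In R 4.3.3 with edgeR 4.0.16, TMM sizes, filterByExpr by group, robust glmQLFit and glmQLFTest compared coculture with control, with Benjamini-Hochberg adjustment over 15629 genes at 0.05. The SE is the log2 fold change divided by the square root of F. CPM uses TMM sizes, FPKM divides by length, and correlations use log2 CPM with a prior count of 2. Alternatives were DESeq2 1.42.0, its size factors, limma-voom (limma 3.58.1), no filter, each library left out, a replicate block and no coculture 1 and 2. The 10 genes, the lists, the tests and the alternatives were chosen with earlier results of these data known. Of 218 list entries, 215 were matched to rows. Named from each list were up to 6 called genes by adjusted p and the most abundant tested gene, and for each tested gene of the 10 the 3 most correlated. Named besides, after their values were seen, were STAT3, SERPINA1, VEPH1, CEBPB-AS1, CEBPE, CRP, ORM1, ORM2, HAMP, KRT8, KRT18, SAA4, SAA2-SAA4, HPR, FGA, FGG and the markers at or near 0. S100A8, CSF3R, MPO, LTF, CAMP and MS4A7 were also named after their values were seen. Scripts were tested on simulated counts. Counting intervals are exact binomial at 95%, and they and the floor of 3 counts cover counting error only. Library pairs of a group differed by a chi-square of at least 5.33 per degree of freedom, so each library was counted.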

Additional observations from a re-analysis of the deposited data

Results flagged for a closer look

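A library stood far from the others of its group, by Dixon's test at 95%, in 12 of 81 groups of values examined. The groups share the same 10 libraries, and some hold a few counts among zeros. The nominal rate of 1 in 20 therefore does not apply, and the number of flags cannot be set against chance. Among the 10 genes, SAA1 was at 5.32 CPM in coculture 1, against 2.06 CPM in the next library. SERPINA3 was at 0.0842 CPM in coculture 2 and at 0 in the others, and SAA2 at 0.0247 CPM in control 2, from 1 count. NFKBIA was highest in coculture 4 at 182 CPM and, among controls, in control 2 at 54.8 CPM, and NFKBIZ was highest in coculture 4 at 160 CPM. Among marker genes, LYZ was lowest in coculture 2 at 9.79 CPM and, among controls, highest in control 4 at 0.203 CPM, and CD53 was lowest in coculture 2 at 0.547 CPM. ITGAM had 0 CPM in control 1, S100A9 was at 0.0214 CPM in control 1 alone of the controls, and COL1A1 was at 67 CPM in coculture 1.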

How the results depend on the processing

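PTX3 kept its direction and its call in all 16 alternatives, at 1.56 to 1.85 on the log2 scale. With DESeq2, 4 of the 10 genes were higher, PTX3, SAA1, CEBPB and CEBPD, where edgeR called 1, without coculture 1 and 2 it was 2, and leaving out 1 library gave 1 to 3; 0 were lower in every alternative. Genes called higher numbered 333 with DESeq2, 100 with the replicate block and 112 to 204 on leaving out 1 library, against 178, and genes called lower 106 with DESeq2, 10 with the replicate block, 112 without coculture 1 and 2 and 4 to 36 on leaving out 1 library, against 29. The replicate numbers are not stated to pair libraries, and deviations of same-numbered libraries correlated at 0.347, -0.0849, 0.201 and 0.137. With the replicate block the calls of IL6, SPI1, NFKBIZ, TNFAIP6, CSF1R, TYROBP, CD52 and ITGAL were lost. The higher count was 114 without control 3 and 112 without control 4, and the lower count fell most without coculture 2, 4 or 6 or any 1 control (19, 12, 6, 13, 18, 5 and 4). With DESeq2 the acute-phase list had 8 higher, against 5, and the C/EBP relatives 3 higher and 1 lower, against 1 and 0. Directions turned for genes that were not called. Leaving out coculture 1 and 2 put CEBPA at -0.0584, CEBPG at -0.0112, FN1 at -0.0049, F12 at -0.0589 and FPR1 at -0.1878. With the replicate block, FN1 was at -0.0363, TNFRSF1A at 0.0407, PTPN1 at -0.0674 and FPR1 at -0.0966. On leaving out 1 library, CEBPA ran from -0.009 to 0.1576, FN1 from -0.0453 to 0.1243, TNFRSF1A from -0.1021 to 0.0629, PTPN1 from -0.0106 to 0.0725 and FPR1 from -0.0695 to 0.1639. The cause was not tested. Counts of SERPINA3, HP, FGB and SAA2 were too few for the filtered fit.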
